A study of Mus musculus with 12 samples.

Results

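Toll-like receptors are sensors of microbial molecules, and open chromatin was followed at the mouse genes for 6 of them (Tlr1, Tlr2, Tlr4, Tlr6, Tlr9 and Tlr13), for their helpers Cd14, Cd180 and Ly86, and for the adaptor Myd88. Regions were taken by position and by name. A region of called ATAC-seq peaks belonged to a gene if it lay within 10 kb of the gene body, which gave 35 regions, or if the authors' deposited comparison tables listed it under the gene's symbol, which added 5. These are 40 regions of 73147 in the whole study, and all 10 genes had at least 1. Each is called by its gene and by the distance of its summit from the nearest annotated gene start along the gene's strand, so that +7.8 kb lies downstream of the start and −3.7 kb upstream. A region called the start region holds the gene start itself.

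Toll-like receptors are proteins of the cell surface or the endosome that bind conserved parts of microbes and, on binding, recruit adaptors such as MyD88, which passes the signal through kinases to NF-kB and AP-1 factors and to cytokine genes. Tlr2 pairs with Tlr1 or Tlr6 to bind bacterial lipopeptides, Tlr4 binds lipopolysaccharide handed over by Cd14, and Tlr9 and Tlr13 sit in endosomes and bind unmethylated CpG DNA and bacterial ribosomal RNA. Cd180 resembles the outer part of Tlr4, lacks a signalling domain and forms a complex with Ly86 (MD-1). In the myeloid lineage these genes belong to the equipment of monocytes, macrophages and neutrophils, the cells into which granulocyte-monocyte progenitors mature.

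The cells were granulocyte-monocyte progenitors from C57BL6 bone marrow carrying ER-HOXA9, in which the homeobox protein HOXA9 is joined to an estrogen receptor part and so is active in estradiol. All groups were grown with stem cell factor and 0.5 uM beta-estradiol, and each of the 6 groups had 2 libraries described as biological replicates. Combo cells had 200 nM GSK-LSD1, 5 uM mercaptopurine and 5 uM cerulenin together, LSD1i cells 200 nM GSK-LSD1 (which blocks LSD1, a histone demethylase), CER cells 5 uM cerulenin (a fatty acid synthase inhibitor), 6MP cells 5 uM mercaptopurine (a purine analogue) and Vehicle cells DMSO, all for 2 days. Day0 cells were untreated and taken at the start (day 0). The fusion is present in every group, and no library of cells without it, or of mature myeloid cells, was analysed here. ATAC-seq shows where a transposase can enter chromatin. It does not measure transcripts or proteins, so no value here is a level of receptor expression.

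The value used for a region is its relative summit signal, the height of the tallest fragment pileup in the region divided by the library's background depth and set relative to the library's median of the same value at the 33367 regions with a peak in every library. A relative signal of 1 is therefore the height of a typical shared region. Libraries held 42651 to 56398 peaks at a background depth of 2.44 to 4.55 fragments per position. Enrichment differed between libraries and went partly with the groups, since the median shared region stood 35.9-fold and 42.7-fold over background in the Combo libraries, 16.9-fold in 6MP replicate 1, 23.0-fold in CER replicate 2 and 28.3-fold to 35.4-fold in the other 8. Its part in the differences below was not tested beyond the scalings given in the closing section. Of the 10 granulocyte-monocyte progenitor markers with an annotated start, 8 had a peak at the start in all 12 libraries, namely Mpo, Ctsg, Ms4a3, Cebpa, Kit, Cd34, Gfi1 and Irf8. Elane and Prtn3 had a peak at the start in no library.

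The gene starts themselves show the sequence context of these regions, and 3 are printed because their start regions are described below as the open (Tlr2), the opened (Tlr9) and the weakly called (Tlr13) kind. Each is the 250 bases before the annotated start, 5′ to 3′ on the gene's strand, from RefSeq on GRCm38.p6. Capitals mark matches to the letters of 6 myeloid factor motifs searched on both strands. These were GAGGAAG for PU.1, TTGCNNAA for C/EBP, TGANTCA for AP-1, TGTGGTT for RUNX, AAATCAC for GFI1 and GGG, any 3 bases and TTCC for NF-kB.
Tlr9, chr9:106222348-106222597, plus strand: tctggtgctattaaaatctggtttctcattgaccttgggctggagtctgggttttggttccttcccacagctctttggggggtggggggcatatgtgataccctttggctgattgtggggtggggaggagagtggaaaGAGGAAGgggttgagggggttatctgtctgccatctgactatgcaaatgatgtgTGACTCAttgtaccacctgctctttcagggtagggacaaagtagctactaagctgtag
Tlr2, chr3:83841609-83841858, minus strand: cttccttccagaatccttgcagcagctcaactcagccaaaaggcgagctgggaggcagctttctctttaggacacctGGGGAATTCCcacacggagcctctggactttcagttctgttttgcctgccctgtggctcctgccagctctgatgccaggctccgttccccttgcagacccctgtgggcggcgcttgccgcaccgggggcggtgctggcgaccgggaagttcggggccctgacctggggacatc
Tlr13, chrX:106143025-106143274, plus strand: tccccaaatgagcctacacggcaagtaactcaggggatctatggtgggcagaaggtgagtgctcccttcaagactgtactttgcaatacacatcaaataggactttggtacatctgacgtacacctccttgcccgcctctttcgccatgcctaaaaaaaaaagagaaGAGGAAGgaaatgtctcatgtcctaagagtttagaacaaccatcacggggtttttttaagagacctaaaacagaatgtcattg

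Tlr9 held a PU.1 match whose first base lay at −112 from the start and an AP-1 match at −58. Tlr2 held an NF-kB match at −173, and Tlr13 a PU.1 match at −83. Of the other members, Tlr1 had a PU.1 match at −23 before 1 of its starts, and Tlr6 had C/EBP (−89) and RUNX (−132) matches before 1 start and an NF-kB match (−99) before another. No match was found before the starts of Myd88, Ly86 and Cd180 that were searched. In all, 11 starts of 8 members were in the table. Such letters are common, since 10.6% of all 32817 mouse promoter windows of this length held the PU.1 letters, 9.57% those for C/EBP, 6.75% those for AP-1, 4.65% those for NF-kB, 4.39% those for RUNX and 2.75% those for GFI1. A match describes the sequence and is not a measured binding site.

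Of the 10 genes, 9 had a region over a start, and Ly86 did not, its nearest region lying at +2.9 kb. The tallest start regions were those of the adaptor Myd88, with a median relative signal of 3.28 over 12 libraries (lowest 2.84, highest 4.38), and of Tlr6, with a median of 3.06 (2.37 to 3.60). The Myd88 region also holds the start of Acaa1a, a peroxisomal thiolase gene. Its summit lies at −1191 bases from the Myd88 start, and the data do not tie its height to either gene. The summit of the Tlr6 region lies at −1022 bases from the nearest Tlr6 start. Tlr4 followed with a median of 1.74 (1.39 to 1.95). Tlr9 at 1.05 (0.800 to 1.43) and Tlr2 at 1.02 (0.836 to 1.47) stood at about the height of a typical shared region. Cd180 had a median of 0.724 (0.550 to 0.836) and Cd14 of 0.632 (0.518 to 0.916). The Tlr1 start was called in 11 libraries with a median of 0.224 (0.115 to 0.302), and the Tlr13 start in 6 with a median of 0.261 (0.163 to 0.378). Ranges overlapped between Myd88 and Tlr6, between Tlr9 and Tlr2, between Cd180 and Cd14 and between Tlr13 and Tlr1, while those of Tlr6 and Tlr4 did not meet, nor those of Cd14 and Tlr13. Values are heights at a position and so do not depend on gene length.

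**Figure D1:**
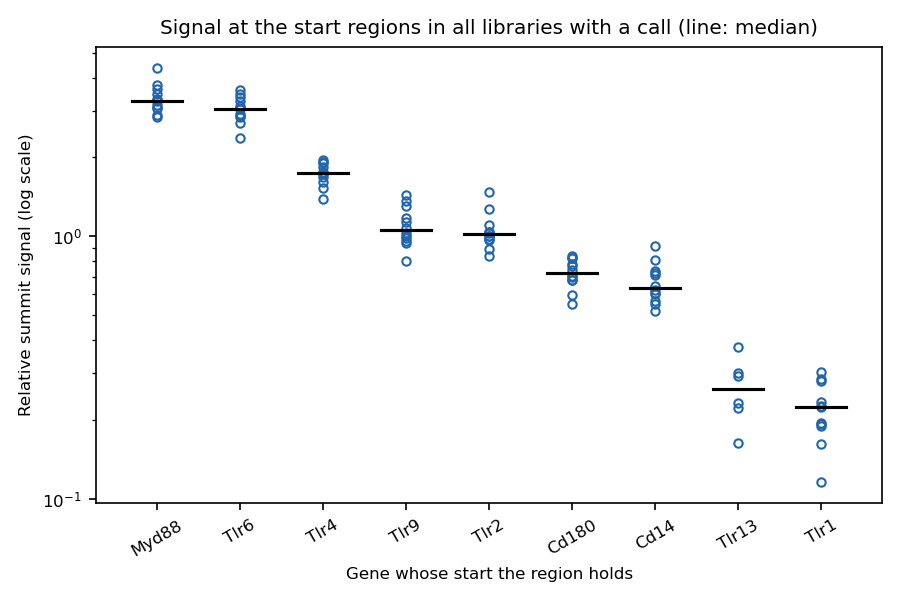
Relative summit signal (log scale) at the start regions of 9 genes, 1 circle per library with a called peak and a line at the median. Myd88 and Tlr6 stood highest with medians of 3.28 and 3.06, and Tlr13 and Tlr1 lowest with medians of 0.261 and 0.224.

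Of the 35 regions within 10 kb, 21 were called in all 12 libraries, untreated progenitors included. Over the whole study 33367 of 73147 regions were. The weaker regions came and went. The Cd180 +6.8 kb region, in the gene body, was called in both Combo libraries (relative signal 0.338 and 0.317), both LSD1i libraries (0.362 and 0.394) and CER replicate 1 (0.259), and in no other library. The Cd180 −5.3 kb region was called only in the Combo libraries (0.181 and 0.220). The Tlr13 −3.6 kb region was called in Combo replicate 1 (0.412) and both LSD1i libraries (0.509 and 0.482) and in no other. Other weak regions were called both with and without the inhibitor, or only without it. Tlr4 −5.7 kb was called only in Day0 replicate 2 (0.137) and 6MP replicate 2 (0.163). Tlr1 +9.4 kb was called only in Day0 replicate 1 (0.116) and LSD1i replicate 2 (0.109). The Tlr13 start was called in 4 libraries without the inhibitor and in no LSD1i library. The mean share of a library's peaks near these genes was 0.0591% with and without the inhibitor. Most of these values are low, and a region without a called peak lies under the caller's threshold, which is not the same as closed.

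**Figure D2:**
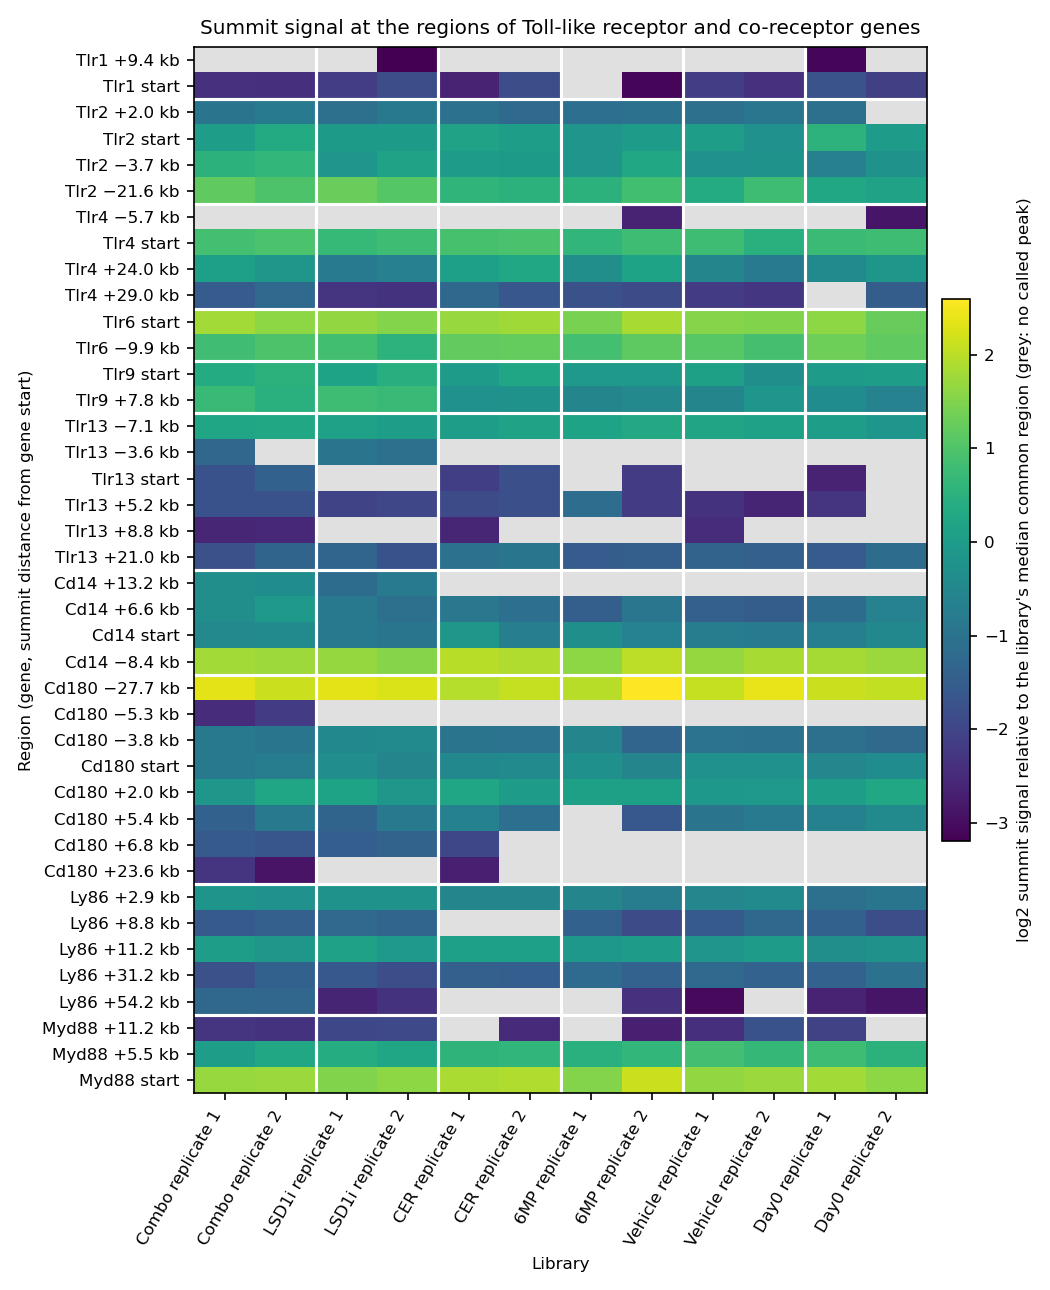
Log2 summit signal relative to each library's median shared region, for the 40 regions (rows, grouped by gene) in the 12 libraries (columns, grouped by treatment), with grey where no peak was called. Most rows were called in every library, and the Cd180 −27.7 kb, Myd88 start and Cd14 −8.4 kb rows were among the tallest. The Cd14 +13.2 kb row, brought in by the deposited Combo table, was called only with the LSD1 inhibitor.

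Treatment was compared with limma, which tests each region with a spread shared over all regions, on regions called in every library of a comparison. A region is called opened or closed where its adjusted p was below 0.05 and the difference positive or negative. The 5 regions that entered through the deposited tables had been chosen by a difference in the same libraries, so their differences are given as a description and without a test. In Combo against Vehicle, 5 of the 27 regions within 10 kb that could be tested opened, at Tlr9 (2 regions), Tlr2, Tlr4 and Cd14, and 1 closed, downstream of Myd88. Over all 42677 regions tested in that comparison 4.97% opened and 3.11% closed. In LSD1i against Vehicle 1 of 27 opened, at Tlr9, and 0 closed, where 4% of all regions opened and 2.05% closed. The median log2 difference of the 27 regions was 0.10 in Combo and 0.07 in LSD1i, beside −0.09 and −0.04 for all regions. With Combo replicate 1 left out, the median log2 difference of the 27 regions in Combo was 0.08, and with Combo replicate 2 left out 0.07. The calls lost with a Combo library left out are named by region below. In LSD1i the Tlr9 start also opened (0.63) without Vehicle replicate 1, and Myd88 +5.5 kb closed (−0.56) without Vehicle replicate 2. On the 4 libraries of Combo against Vehicle alone 3 opened and 1 closed, where 1842 and 991 of all 42677 regions did. Without the trend in the variance 3 opened and 0 closed, where 1748 and 812 of the 42677 did. Scaled by depth alone, 1 region opened in Combo (Cd14 +6.6 kb), where 2.81% of all regions did, and 0 in LSD1i, where 0.409% did. As fold over local background 0 opened in either, where 0.265% of all regions opened in Combo and 0.092% in LSD1i. The closing near Myd88 was lost under both of these scalings, where 0.082% and 0.0328% of all regions closed in Combo. In LSD1i 0 closed under either, where 0.075% and 0.0218% of all regions did. With 2 libraries against 2, an exact permutation test cannot give a two-sided p under 0.333, so these calls rest on the shared spread.

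**Figure D3:**
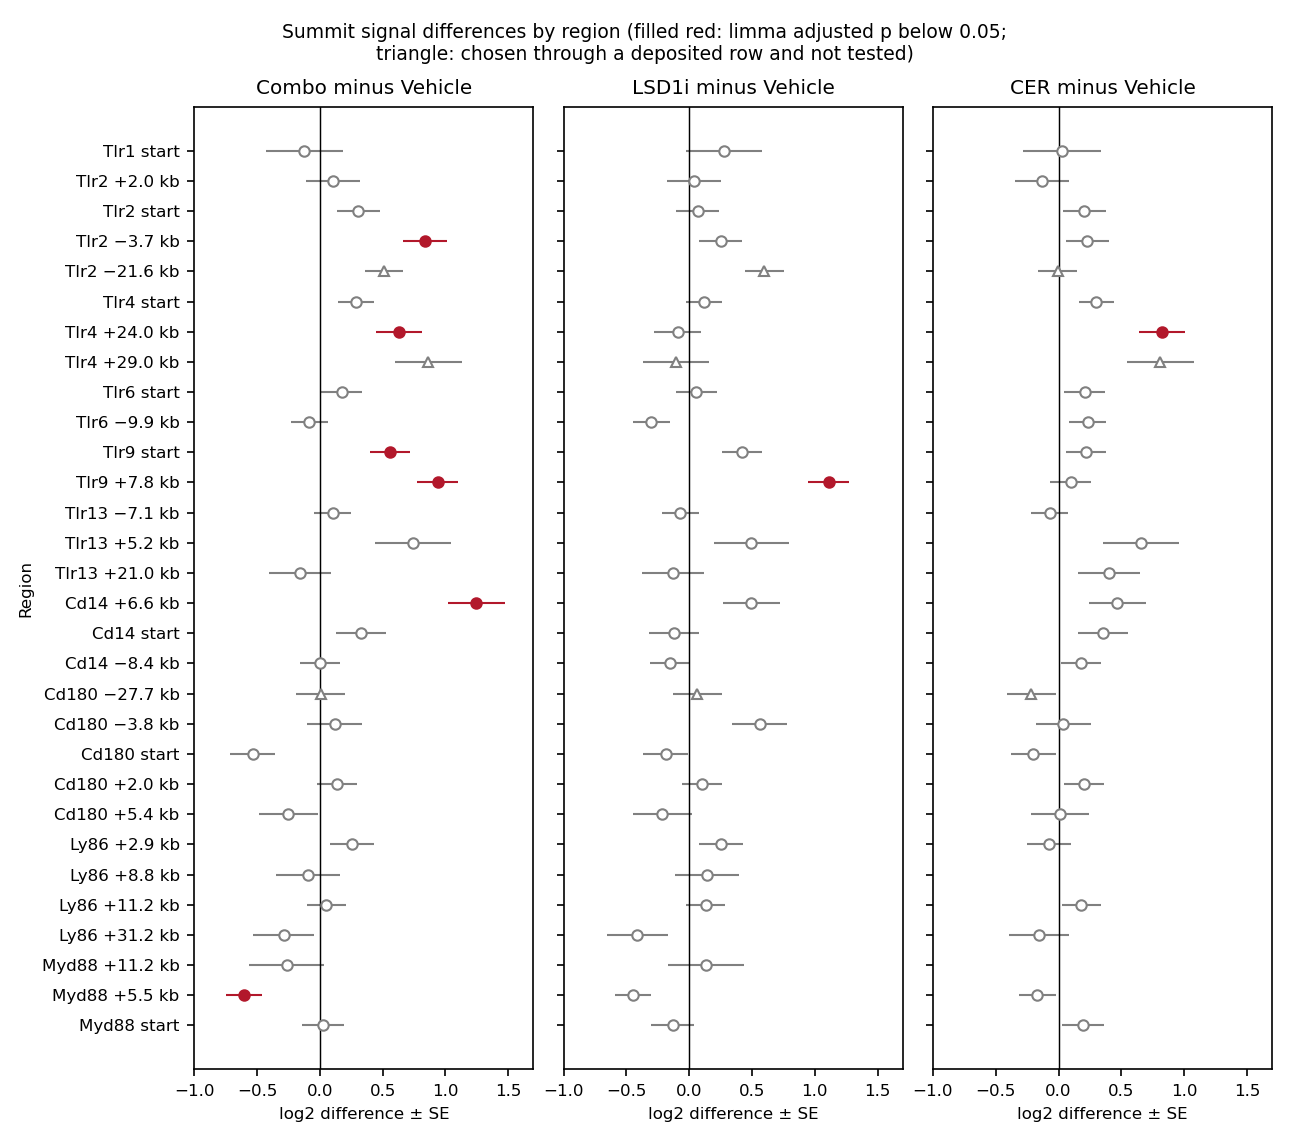
Log2 difference in summit signal ± SE for each tested region of the members, in Combo, LSD1i and CER, each minus Vehicle. Filled red points passed the limma test at an adjusted p of 0.05, and triangles mark regions that the deposited tables brought in and that were not tested; the Tlr9 +7.8 kb and Cd14 +6.6 kb regions had the tallest called differences in LSD1i (1.11) and Combo (1.24).

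The 4 libraries with the LSD1 inhibitor, Combo and LSD1i together, were also set against the other 8. Here 5 of 21 regions within 10 kb opened (Tlr9 in 2 places, Tlr2, Cd14 and Ly86) and 2 closed (near Myd88 and near Tlr6). Over all 33367 regions 11.4% opened and 18.3% closed. Without 6MP replicate 1, the library of lowest enrichment, 6 of 23 opened and 4 closed, with Cd180 −3.8 kb (0.43), Cd14 −8.4 kb (−0.18) and Myd88 start (−0.21) added, while 13.8% of all regions opened and 30.6% closed. Scaled by depth 4 opened and 0 closed, where 8.47% and 0.162% of all regions did. As fold over local background 1 opened and 1 closed, where 1.79% and 1.37% did. This comparison shares its Combo, LSD1i and Vehicle libraries with the ones above, so it does not stand apart from them. All 4 inhibitor libraries lay above all 8 others in 2 of the 21 regions (Tlr9 +7.8 kb and Ly86 +2.9 kb) and below in 1 (Myd88 +5.5 kb), against 5.12% above and 5.72% below among all shared regions.

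Among the endosomal receptors, Tlr9 gave the clearest case. Its +7.8 kb region (chr9:106229758-106231032, mm10), past the end of the gene, had a relative signal of 1.64 and 1.39 in the Combo libraries and of 1.75 and 1.66 in the LSD1i libraries. It had 0.832 and 0.854 in CER, 0.676 and 0.721 in 6MP, 0.692 and 0.900 in Vehicle and 0.767 and 0.644 in Day0 libraries. Every library with the LSD1 inhibitor thus lay above every library without it. The log2 difference was 0.94 ± 0.16 in Combo against Vehicle (limma adjusted p = 0.000242), 1.11 ± 0.16 in LSD1i against Vehicle (limma adjusted p = 4.16e-05) and 1.09 ± 0.10 for all inhibitor libraries against the others (limma adjusted p = 1.16e-09). It also held between libraries whose names carry the same suffix letter, a label whose meaning is not given, with 1.39 in Combo against 0.692 in Vehicle under the letter R and 1.64 in Combo against 0.900 in Vehicle with no letter. The authors' deposited table lists this region under Alas1, a haem synthesis gene, and the data do not tie it to either gene.

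The Tlr9 start region (chr9:106221742-106223307), whose promoter sequence is printed above, moved less. It had 1.30 and 1.43 in Combo, 1.13 and 1.36 in LSD1i, 1 and 1.17 in CER, 0.959 and 0.942 in 6MP, 1.08 and 0.800 in Vehicle and 0.984 and 1.03 in Day0 libraries. LSD1i replicate 1 lay below CER replicate 2, so the groups overlapped. It opened in Combo against Vehicle by 0.56 ± 0.16 (limma adjusted p = 0.0257) and in the inhibitor libraries by 0.40 ± 0.10 (limma adjusted p = 0.00306). In LSD1i against Vehicle the difference of 0.42 ± 0.16 did not pass (limma adjusted p = 0.119). The Combo call was lost when Vehicle replicate 2 (0.34), Combo replicate 1 (0.63) or Combo replicate 2 (0.49) was left out, and in 7 of 13 alternatives in all, with the fits on the 4 libraries (limma adjusted p = 0.0729), without the variance trend (limma adjusted p = 0.0978), by depth (0.78) and as fold over local background (0.12) among them. The call over all inhibitor libraries was lost without LSD1i replicate 2 (0.33), by depth (0.67) and as fold over local background (0.13).

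Tlr13, a receptor that mice have and humans lack, had a strong region at −7.1 kb and weak ones over the gene. The −7.1 kb region had 1.17 and 1.21 in Combo, 1.09 and 1.03 in LSD1i, and 0.904 to 1.24 in the other 8 libraries, so the groups overlapped. Its difference in Combo against Vehicle was 0.10 ± 0.15 (limma adjusted p = 0.735). The +5.2 kb region, in an intron by the authors' annotation, had 0.300 and 0.299 in Combo, 0.250 and 0.255 in LSD1i and 0.195 and 0.164 in Vehicle libraries. That difference, 0.74 ± 0.30 in Combo, did not pass (limma adjusted p = 0.138). The start region was called in both Combo (0.300 and 0.378), both CER (0.231 and 0.292), 6MP replicate 2 (0.221) and Day0 replicate 1 (0.163), and in no LSD1i or Vehicle library. It could therefore not be tested against Vehicle.

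At the lipopeptide receptor Tlr2, 1 region upstream of the gene opened and the start region did not pass. The Tlr2 −3.7 kb region (chr3:83844895-83845628) had 1.43 and 1.55 in Combo, 0.897 and 1.10 in LSD1i, 0.993 and 0.966 in CER, 0.892 and 1.22 in 6MP, 0.827 and 0.843 in Vehicle and 0.628 and 0.849 in Day0 libraries. The Combo libraries lay above all the others, and the LSD1i libraries did not. It opened in Combo against Vehicle by 0.84 ± 0.17 (limma adjusted p = 0.00165), and over all inhibitor libraries by 0.45 ± 0.11 (limma adjusted p = 0.0017). In LSD1i against Vehicle the difference was 0.25 ± 0.17 (limma adjusted p = 0.433), and the direct difference of Combo against LSD1i, 0.59 ± 0.17, did not pass either (limma adjusted p = 0.162).

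The Tlr2 −21.6 kb region, which entered through the deposited tables, had 2.29 and 1.97 in Combo, 2.43 and 2.09 in LSD1i, 1.52 and 1.45 in CER, 1.45 and 1.80 in 6MP, 1.29 and 1.73 in Vehicle and 1.22 and 1.10 in Day0 libraries. All 4 inhibitor libraries lay above the other 8, as in 5.12% of all shared regions. The region had been chosen by its difference in Combo and LSD1i against Vehicle, so this order is no test. As fold over local background its log2 difference was −0.21 in Combo and −0.0659 over the inhibitor libraries. The Tlr2 start region had 1.04 and 1.27 in Combo, 0.966 and 0.978 in LSD1i and 1.03 and 0.836 in Vehicle libraries, within a range of 0.836 to 1.47 over all 12. Its difference in Combo was 0.31 ± 0.17 (limma adjusted p = 0.318).

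Tlr1 and Tlr6, the partners of Tlr2, are neighbours on chromosome 5. The Tlr1 start region differed by −0.12 ± 0.31 in Combo and by 0.28 ± 0.31 in LSD1i (limma adjusted p = 0.85 and 0.643), at relative signals of 0.115 to 0.302 where few fragments are counted. The tall Tlr6 start region had 3.47 and 3.04 in Combo, 3.14 and 2.85 in LSD1i and 2.91 and 2.85 in Vehicle libraries, and its differences of 0.17 ± 0.16 and 0.06 ± 0.16 did not pass (limma adjusted p = 0.587 and 0.872). The Tlr6 −9.9 kb region (chr5:64968996-64970619) overlaps the RefSeq gene body, which on the minus strand begins at 64970942. Its name gives the distance from the nearest start used, which lies inside that gene body. The region had 1.77 and 1.98 in Combo and 1.79 and 1.45 in LSD1i libraries. In the other 8 libraries it had 1.82 to 2.49, so the groups overlapped narrowly. It closed over the inhibitor libraries, with a log2 difference of −0.32 ± 0.09 (limma adjusted p = 0.00739). That call was lost without LSD1i replicate 2 (−0.24) and without Combo replicate 1 (−0.28), and under every other scaling run, by depth (−0.047), centred by intensity (−0.18) and as fold over local background (−0.13). That region also holds the start of Fam114a1, under which the authors list it.

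**Figure D4:**
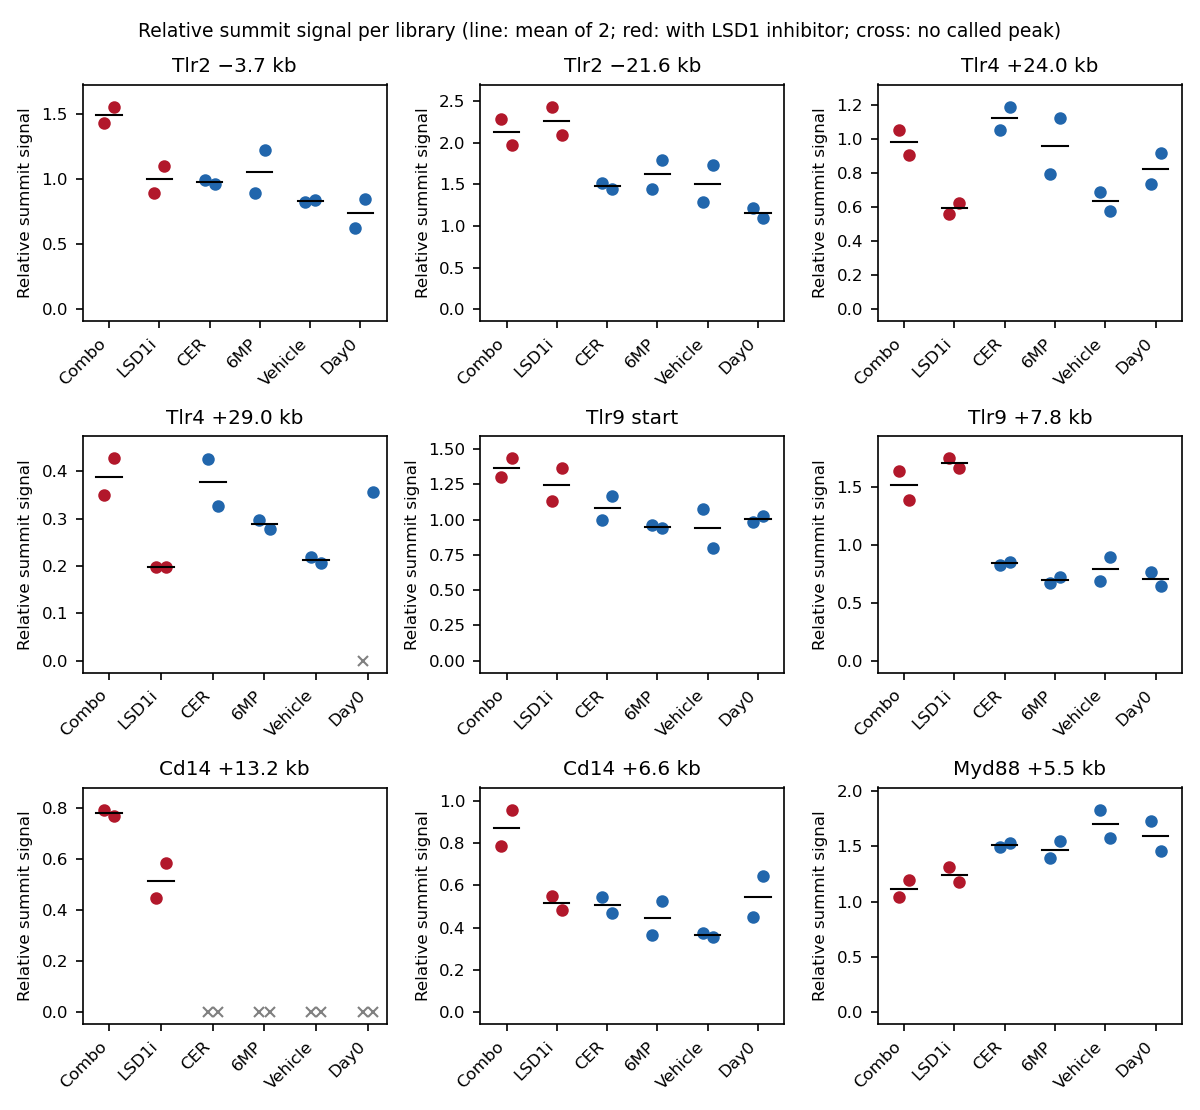
Relative summit signal of 9 regions in each library, in 6 groups of 2, with a line at the mean where both libraries had a peak and a cross where none was called. The Tlr9 +7.8 kb panel separates the 4 libraries with the LSD1 inhibitor (1.39 to 1.75) from the other 8 (0.644 to 0.900). The Tlr4 +24.0 kb panel is low in LSD1i and Vehicle and higher in Combo and CER. The Tlr4 +29.0 kb panel shows a region chosen by its difference in Combo against Vehicle.

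The lipopolysaccharide receptor Tlr4 showed another pattern. Its +24.0 kb region (chr4:66851516-66852852), past the RefSeq gene end and in an intron of a longer Tlr4 transcript by the authors' annotation, had 1.06 and 0.909 in Combo, 0.560 and 0.628 in LSD1i, 1.06 and 1.19 in CER, 0.797 and 1.12 in 6MP, 0.692 and 0.579 in Vehicle and 0.736 and 0.918 in Day0 libraries. LSD1i and Vehicle libraries were the lowest of all, and the Combo and CER libraries were above both. It opened in Combo by 0.63 ± 0.18 (limma adjusted p = 0.0276) and in CER by 0.83 ± 0.18 (limma adjusted p = 0.0392), each against Vehicle and so against the same 2 libraries. In LSD1i the difference was −0.09 ± 0.18 (limma adjusted p = 0.804), and in 6MP it was 0.58 ± 0.18 (limma adjusted p = 0.628). The direct difference of Combo against LSD1i, which shares no library with CER against Vehicle, was 0.72 ± 0.18 and did not pass (limma adjusted p = 0.0897). The Combo call was lost without Vehicle replicate 2 (0.50), Combo replicate 1 (0.52) or Combo replicate 2 (0.74), and the CER call without Vehicle replicate 2 (0.70), CER replicate 1 (0.91) or CER replicate 2 (0.74). Both calls were also lost on the 4 libraries compared (limma adjusted p = 0.0546 in Combo and 0.108 in CER), without the variance trend (limma adjusted p = 0.0919 and 0.174), by depth (0.85 in Combo and 0.53 in CER) and as fold over local background (0.075 in Combo and 0.13 in CER).

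In CER against Vehicle this was the only one of 25 testable regions within 10 kb to open, and 0 closed. Over all 38409 regions 0.154% opened and 0.174% closed. The neighbouring +29.0 kb region, brought in by the deposited table for Combo, had 0.350 and 0.427 in Combo, 0.198 and 0.197 in LSD1i, 0.427 and 0.326 in CER, 0.297 and 0.279 in 6MP and 0.218 and 0.207 in Vehicle libraries, and 0.356 in Day0 replicate 2 with no peak in Day0 replicate 1. LSD1i and Vehicle libraries were the lowest, and Day0 replicate 2 lay above Combo replicate 1 and CER replicate 2. The region had been chosen by its difference in Combo against Vehicle, so it is not a second instance of the +24.0 kb pattern. Its CER difference, against the same Vehicle libraries, was 0.81 ± 0.27. The Tlr4 start region spanned 1.39 to 1.95 over the 12 libraries, and its difference of 0.29 ± 0.14 in Combo did not pass (limma adjusted p = 0.236).

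Cd14, the co-receptor that hands lipopolysaccharide to Tlr4, had the tallest called difference of Combo. Its +6.6 kb region (chr18:36719234-36720628), downstream of the gene, had 0.787 and 0.957 in Combo, 0.552 and 0.482 in LSD1i, 0.545 and 0.472 in CER, 0.365 and 0.529 in 6MP, 0.376 and 0.357 in Vehicle and 0.450 and 0.644 in Day0 libraries. The Combo libraries lay above all the others, and the rest overlapped. It opened by 1.24 ± 0.23 in Combo against Vehicle (limma adjusted p = 0.000438) and by 0.55 ± 0.14 over the inhibitor libraries (limma adjusted p = 0.00317). In LSD1i against Vehicle the difference of 0.49 ± 0.23 did not pass (limma adjusted p = 0.211), and neither did 0.75 ± 0.23 in Combo against LSD1i (limma adjusted p = 0.169).

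The Cd14 +13.2 kb region, which entered only through the deposited Combo table, was called in both Combo libraries (0.794 and 0.768) and both LSD1i libraries (0.448 and 0.584) and in none of the other 8. Of all 73147 regions 0.943% had peaks in all 4 inhibitor libraries and in no other. The region had been chosen by its difference in Combo against Vehicle, so this pattern is no test. The Cd14 start region had 0.725 and 0.738 in Combo, 0.552 and 0.518 in LSD1i, 0.916 and 0.607 in CER, 0.811 and 0.644 in 6MP, 0.602 and 0.564 in Vehicle and 0.620 and 0.712 in Day0 libraries. The groups overlapped and no comparison of it passed; in Combo against Vehicle it differed by 0.33 ± 0.20 (limma adjusted p = 0.369).

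For Cd180 and its partner Ly86 no region passed against Vehicle, and 1 region of Ly86 opened over the inhibitor libraries. The Cd180 start region had 0.550 and 0.598 in Combo, 0.784 and 0.679 in LSD1i and 0.827 and 0.836 in Vehicle libraries. Its Combo difference of −0.54 ± 0.18 missed the threshold (limma adjusted p = 0.0566), and passed when centred by intensity (limma adjusted p = 0.0489) or with the name suffix as a term (limma adjusted p = 0.0297). The Cd180 −3.8 kb region was 0.556 and 0.518 in Combo, 0.716 and 0.745 in LSD1i and 0.504 and 0.486 in Vehicle, a difference in LSD1i of 0.56 ± 0.22 that did not pass (limma adjusted p = 0.135). The tallest region of all members, Cd180 −27.7 kb, had 5.16 and 4.39 in Combo, 5.10 and 4.82 in LSD1i and 4.26 and 5.26 in Vehicle libraries, which overlapped. It holds the start of another gene, Gm41046.

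The Ly86 +2.9 kb region (chr13:37347653-37348720), in the gene body, had 0.875 and 0.835 in Combo and 0.853 and 0.854 in LSD1i libraries, against 0.685 and 0.674 in CER, 0.676 and 0.587 in 6MP, 0.699 and 0.736 in Vehicle and 0.481 and 0.521 in Day0 libraries. All 4 inhibitor libraries lay above the other 8, and the region opened over them by 0.45 ± 0.11 (limma adjusted p = 0.00213). Against Vehicle alone the differences were 0.25 ± 0.18 in Combo and 0.25 ± 0.18 in LSD1i and did not pass (both limma adjusted p = 0.443). The Day0 libraries were the lowest, and Vehicle against Day0 differed by 0.52 ± 0.18 (limma adjusted p = 0.245). The Ly86 +54.2 kb region, in an intron by the authors' annotation, had 0.425 and 0.409 in Combo against 0.164 and 0.197 in LSD1i libraries. It had 0.192 in 6MP replicate 2, 0.120 in Vehicle replicate 1 and 0.163 and 0.137 in Day0 libraries, and no peak in the other 4, so it could not be tested against Vehicle. The Combo libraries stood highest, and their difference from LSD1i, 1.21 ± 0.29, missed the threshold (limma adjusted p = 0.0765), though it passed by depth (limma adjusted p = 0.00483), centred by intensity (limma adjusted p = 0.0282) and on the 4 libraries alone (limma adjusted p = 0.00048). The authors' deposited table lists it under Gm4035, with a log2 fold against Vehicle of 1.82 in Combo (FDR 2.73e-12) and 0.68 in LSD1i (FDR 0.0252).

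For the adaptor Myd88, the region that fell lies past the end of the gene. The Myd88 +5.5 kb region (chr9:119333843-119335006) had 1.04 and 1.20 in Combo, 1.31 and 1.18 in LSD1i, 1.49 and 1.53 in CER, 1.39 and 1.55 in 6MP, 1.83 and 1.57 in Vehicle and 1.73 and 1.45 in Day0 libraries. All 4 inhibitor libraries lay below the other 8. It closed in Combo against Vehicle, with a log2 difference of −0.61 ± 0.14 (limma adjusted p = 0.0066), and over the inhibitor libraries with −0.41 ± 0.09 (limma adjusted p = 0.000867), while −0.45 ± 0.14 in LSD1i missed the threshold (limma adjusted p = 0.059). The Combo call was lost without Vehicle replicate 1 (−0.50), without Combo replicate 1 (−0.50), without the variance trend (limma adjusted p = 0.0522), by depth (−0.38) and as fold over local background (−0.25). The call over the inhibitor libraries was lost by depth (−0.14) and as fold over local background (−0.13). The authors' deposited table for LSD1i lists this region under Acaa1a, with a log2 fold of −0.6 (FDR 9.21e-05). The Myd88 start region had 3.26 and 3.32 in Combo, 2.84 and 3.07 in LSD1i and 3.17 and 3.30 in Vehicle libraries, and differed by 0.03 ± 0.17 in Combo (limma adjusted p = 0.949).

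The remaining regions with a test in Combo against Vehicle, at Tlr2 +2.0 kb, Tlr13 +21.0 kb, Cd14 −8.4 kb, Cd180 +2.0 and +5.4 kb, Ly86 +8.8, +11.2 and +31.2 kb and Myd88 +11.2 kb, had log2 differences of −0.29 to 0.14 in Combo and −0.41 to 0.14 in LSD1i, and none passed. The Cd14 −8.4 kb region overlaps Tmco6, under which the authors' deposited table lists it, with a log2 fold of −0.44 in LSD1i (FDR 0.000106). The LSD1i difference here, −0.15 ± 0.16, did not pass (limma adjusted p = 0.63). Tlr1 +9.4 kb and Tlr4 −5.7 kb were called in 2 libraries each, Tlr13 +8.8 kb in 4 and Cd180 +23.6 kb in 3. These were too few for a test against Vehicle.

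No region of these genes passed in 6MP against Vehicle, Vehicle against Day0 or Combo against LSD1i. In 6MP against Vehicle 0 of 24 regions within 10 kb passed limma, with 2 at an unadjusted p below 0.05, and over all 37143 regions 0% opened and 0% closed, with 1883 at an unadjusted p below 0.05. In Vehicle against Day0 0 of 24 passed, with 4 at an unadjusted p below 0.05, where 0.071% of all regions opened and 0.0101% closed. In Combo against LSD1i 0 of 29 passed, with 5 at an unadjusted p below 0.05, where 0.0893% opened and 0.0229% closed. Fitted on the 4 libraries of that last comparison alone, limma opened 4 of the 29 (Ly86 +54.2 kb, Cd14 +6.6 kb, Tlr2 −3.7 kb and Tlr4 +24.0 kb), where 2.9% of all regions opened and 2.34% closed.

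The authors' deposited tables, which hold only regions with an FDR of 0.05 or less, list 13 regions under these genes for Combo and 7 for LSD1i, and 0 for CER and for Vehicle against Day0. All 13 Combo rows of the authors' deposited table opened, where 85.6% of all listed rows did. In the authors' deposited table, 3 of the 7 LSD1i rows opened and 4 closed, where 16.6% of all listed rows opened. The authors' deposited table and the fit above differ at some regions. For Tlr4 +24.0 kb the authors' deposited table gives a log2 fold of 0.69 in Combo (FDR 0.0045) and of −0.39 in LSD1i (FDR 0.0479). It gives −0.39 for the Myd88 start and −0.41 for the Cd180 start in LSD1i (authors' deposited table, FDR 0.000761 and 0.0367), neither of which passed limma here. It gives 1.23 for the Tlr13 start in Combo (authors' deposited table, FDR 0.00101), a region that had no called peak in Vehicle. For Cd180 −27.7 kb it gives −0.29 in LSD1i (authors' deposited table, FDR 1.3e-07), where the log2 difference here was 0.07. In Combo it gives 0.85 for Tlr13 +5.2 kb, 0.57 for Tlr13 −7.1 kb and 0.58 for the Cd14 start (authors' deposited table, FDR 0.00105, 0.0413 and 0.0498). The Tlr13 +5.2 kb, Tlr13 −7.1 kb and Cd14 start regions did not pass limma here.

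Peaks per library gave a count that needs no scaling of signal. Within 10 kb of the 10 genes there were 31 to 34 called peaks in the 4 inhibitor libraries and 24 to 32 in the other 8. The mean was 32.2 ± 1.26 in the inhibitor libraries and 28.4 ± 2.50 in the others (SD, n = 4 and 8), a difference of 3.88 (exact two-sided permutation p = 0.0222 over 495 splits). As a share of each library's peaks the means were 0.0591% in the inhibitor libraries and 0.0591% in the others (exact two-sided permutation p = 0.998).

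The rest of the pathway was read from 58 genes in 6 lists. Of their regions within 10 kb, 8 of 154 opened and 4 closed in Combo against Vehicle, where 4.97% and 3.11% of all regions did. In LSD1i against Vehicle 7 of 152 opened and 3 closed, where 4% and 2.05% of all regions did. Over the inhibitor libraries 7 of 127 opened and 29 closed, where 11.4% of all regions opened and 18.3% closed. By role, over the inhibitor libraries, the transcription factors had 0 opened and 9 closed of 19, the kinases and ligases 0 and 9 of 41, and the targets 4 and 3 of 27. The other Toll-like receptors had 2 opened and 1 closed of 9, the localisation proteins and adaptors 1 and 3 of 18 and the inhibitors 0 and 4 of 13. These closed counts depend on the scaling, since by depth 54 of all 33367 regions closed in this comparison, against 6120 as reported. The median log2 difference was −0.23 for the transcription factors, −0.17 for the kinases and ligases and 0.08 for the targets, beside −0.09 for all regions.

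**Figure D5:**
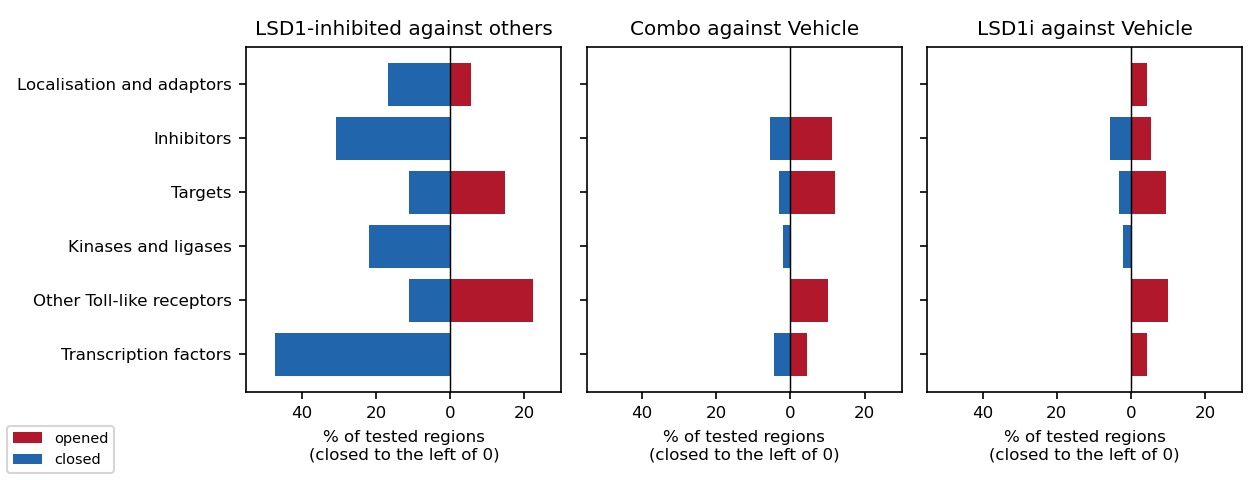
Share of tested regions within 10 kb of the pathway genes that opened (red, right of 0) or closed (blue, left of 0) by limma, for 6 lists in 3 comparisons. Over the inhibitor libraries 9 of 19 transcription factor regions closed and 0 opened, and 4 of 27 target regions opened and 3 closed.

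Among the targets, a region of Cxcl2, a neutrophil chemokine, had 3.12 and 3.34 in Combo, 2.13 and 2.175 in LSD1i, 1.85 and 1.85 in CER, 1.32 and 1.73 in 6MP, 1.53 and 1.52 in Vehicle and 2.13 and 1.81 in Day0 libraries. The Combo libraries lay above all the others, and Day0 replicate 1 reached the LSD1i level. Against Vehicle the region rose by 1.08 ± 0.14 in Combo (limma adjusted p = 6.06e-06) and by 0.50 ± 0.14 in LSD1i (limma adjusted p = 0.0331). A region of the cytokine gene Il1a rose by 1.12 ± 0.25 in Combo and 0.96 ± 0.25 in LSD1i (limma adjusted p = 0.00407 and 0.0184). For the cytokine gene Il12b, 1 region rose in LSD1i and another fell in Combo, with log2 differences of 1.06 ± 0.31 and −0.69 ± 0.20 (limma adjusted p = 0.0385 and 0.0267). A region of Ptgs2, which encodes cyclooxygenase 2, fell in LSD1i, with a log2 difference of −0.75 ± 0.17 (limma adjusted p = 0.0066).

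Among other receptors, a region of Tlr7, an endosomal sensor of single-stranded RNA, had 0.506 and 0.366 in Combo, 0.578 and 0.620 in LSD1i and 0.248 and 0.350 in Vehicle libraries, and at most 0.405 in the CER, 6MP and Day0 libraries. It rose in LSD1i by 1.02 ± 0.28 (limma adjusted p = 0.0228). A region of Tlr5, the flagellin receptor, rose in Combo by 0.84 ± 0.25 (limma adjusted p = 0.0361), with 0.444 and 0.415 in Combo, 0.233 and 0.263 in LSD1i, 0.434 and 0.427 in CER, 0.338 and 0.298 in 6MP, 0.218 and 0.264 in Vehicle and 0.310 and 0.425 in Day0 libraries. The CER libraries and Day0 replicate 2 lay within the range of the Combo libraries, and CER differed from Vehicle by 0.84 ± 0.25, which did not pass (limma adjusted p = 0.13). A region of Lbp, whose product carries lipopolysaccharide to Cd14, rose in LSD1i by 0.998 ± 0.24 (limma adjusted p = 0.00937).

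Of the inhibitors and factors, a region of Il1rl1, the receptor of interleukin 33, rose in Combo by 1.36 ± 0.29 (limma adjusted p = 0.003), at signals of 0.375 and 0.305 in Combo and 0.128 and 0.136 in Vehicle libraries. A region of Sigirr, a negative regulator of the receptor family, fell, with log2 differences of −0.79 ± 0.14 in Combo and −0.54 ± 0.14 in LSD1i (limma adjusted p = 0.00034 and 0.0177). The factor gene Irf5 had a region that rose in both, by 0.69 ± 0.17 in Combo and 0.80 ± 0.17 in LSD1i (limma adjusted p = 0.00852 and 0.00344), and another that fell over the inhibitor libraries, with a log2 difference of −0.54 ± 0.14 (limma adjusted p = 0.00371). Regions of Nfkb1, an NF-kB subunit, and of the ubiquitin ligase Traf3 fell in Combo, with log2 differences of −0.74 ± 0.23 and −0.74 ± 0.22 (limma adjusted p = 0.0463 and 0.0301). The Nfkb1 region had 0.438 and 0.366 in Combo, 0.405 and 0.431 in LSD1i, 0.357 and 0.416 in CER and 0.394 in 6MP replicate 2. It had 0.602 and 0.743 in Vehicle libraries, 0.612 and 0.575 in Day0 libraries and 0.662 in 6MP replicate 1. Its differences from Vehicle of −0.80 ± 0.23 in CER and −0.68 ± 0.23 in LSD1i did not pass (limma adjusted p = 0.118 and 0.0827). Over the inhibitor libraries it closed, with −0.37 ± 0.14 (limma adjusted p = 0.047).

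Of the marker lists, only the neutrophil one had sums that did not overlap between the inhibitor libraries and the other 8. A start region without a called peak in a library added nothing to that library's sum, so the sums also follow the caller's threshold. The summed relative signal at the starts of the 7 neutrophil markers with an annotated start was 2.30 to 3.41 in the inhibitor libraries and 0.936 to 1.76 in the other 8. Of these markers 2, Camp and Mmp8, had a start peak in every library. The start regions of both opened in Combo against Vehicle and 1 in LSD1i against Vehicle, where 4.97% and 4% of all regions opened. Over the inhibitor libraries 1 of the 2 opened, where 11.4% of all regions did. S100a9 and Ltf had a start peak in none. For the monocyte and macrophage list the sums overlapped, at 1.72 to 2.26 in the inhibitor libraries and 1.41 to 2.08 in the others, and Ccr2 had no start peak. The dendritic cell sums were 7.18 to 7.84 in the inhibitor libraries and 5.85 to 7.63 in the others, with none at Zbtb46, Xcr1 and Clec9a. The B cell sums were 3.08 to 3.59 in the inhibitor libraries and 3 to 4.31 in the others, with none at Pax5 and Vpreb1. Of the 6 T and NK cell markers, 5 had no start peak (Cd3e, Cd3g, Lck, Zap70 and Ncr1). Of the 5 erythroid and megakaryocyte markers 2 had none (Klf1 and Hba-a1). The T and NK cell sums were 1.92 to 2.24 in the inhibitor libraries and 2.03 to 2.64 in the others. In the same order the erythroid and megakaryocyte sums were 2.73 to 3.17 and 2.17 to 3.23. The granulocyte-monocyte progenitor sums were 20.1 to 21.7 and 17.9 to 22.7. In bulk nuclei a change in the share of cells and a change in each cell cannot be told apart, and the part of maturing cells in the regions above was not tested.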

How the data were processed

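ATAC-seq peaks were compared between 6 groups of 2 libraries, read from the sample labels. The submitters' processing notes name MACS2 2.1.2 for peaks, DiffBind, Bowtie2, Trimmomatic 0.38, Picard 2.18.26 and SAMtools 1.9 with the mm10 build, and settings and order are not given in the sources used here. For each library the authors deposited peaks with a score, a fold ratio of summit over local background, and 2 significance columns, −log10 p and −log10 q, none with a q-value above 0.01. Peaks were called per library. The authors' deposited comparison tables give log2 levels and folds with a p-value and FDR, at unstated scaling; 4 were used. The table for mercaptopurine was not used here.

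Fragment pileup and background at each summit were solved from the fold ratio and the p-value, and the pileup came out whole within 0.001 at 100% of summits. The smallest background of a library was taken as its depth. Log2 of pileup over depth was centred on the library's median over regions called in all 12 libraries. The smallest called pileup of a library was 10 to 14 fragments and the median 50 to 75, which limits the precision of weak regions. Peaks were joined into 73147 regions and named with RefSeq on GRCm38.p6, the assembly of mm10. Differences were fitted with limma 3.58.1 in R 4.3.3, on all 12 libraries with a term per group and a mean-dependent prior variance, and adjusted by Benjamini-Hochberg over all regions called in every library of a comparison. The fit was tested on simulated data.

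Every member is named; of the pathway genes, at most the 12 with the largest absolute difference among those with a passing region. The members, lists and tests were chosen with earlier results of these data known. Motifs were to be searched around summits, and with no genome sequence at hand were searched before gene starts. Alternatives were other scalings, filters, terms and libraries left out. Replicate numbers did not pair the libraries.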

Additional observations from a re-analysis of the deposited data

How the results depend on the processing

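Scaled by depth without centring, which moved the median of all regions to −0.19 in LSD1i, 0.13 in Combo, −0.26 in CER, −0.46 in 6MP, 0.19 in Vehicle against Day0, 0.33 in Combo against LSD1i and 0.19 over the inhibitor libraries, called regions numbered 200 in LSD1i, 1235 in Combo, 1 in CER, 1 in 6MP, 1 in Vehicle against Day0, 138 in Combo against LSD1i and 2879 over the inhibitor libraries, beside 2501, 3445, 126, 0, 32, 49 and 9932 as reported. Of these, 84.5%, 97.2% and 98.1% opened in LSD1i, Combo and over the inhibitor libraries, beside 66.1%, 61.5% and 38.4%. Taken as fold over local background, the counts in the same order were 47, 127, 2, 6, 3, 3 and 1054. With that measure Tlr2 −21.6 kb turned to −0.21 in Combo and −0.0659 over the inhibitor libraries, and Tlr13 −7.1 kb to −0.38 over the inhibitor libraries (limma adjusted p = 0.0279). Member regions within 10 kb that opened were then 0 in Combo, 0 in LSD1i and 1 over the inhibitor libraries. By depth they were 1, 0 and 4. The shares of all regions are given with the treatment comparisons above. Tlr9 +7.8 kb over the inhibitor libraries kept its call in 20 of 20 alternatives, at log2 0.48 to 1.36. In Combo it kept it in 11 of 13 and in LSD1i in 10 of 12. The cause of these shifts was not tested.

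Without the variance trend 1636 regions were called in LSD1i and 0 each in CER, Vehicle against Day0 and Combo against LSD1i. Centred by intensity CER had 314 and Combo against LSD1i 127, and 53.8% of the calls over the inhibitor libraries opened. With the name suffix as a term CER had 881, 6MP 27, Vehicle against Day0 1414 and Combo against LSD1i 222. On the 4 libraries alone CER had 0, Vehicle against Day0 0 and Combo against LSD1i 2289. With 1 library a group enough, 6MP had 1. Leaving out each library in turn gave 646 to 3416 regions in LSD1i, 1343 to 2931 in Combo, 1 to 1248 in CER, 0 to 33 in 6MP, 0 to 1241 in Vehicle against Day0, 0 to 12 in Combo against LSD1i and 5704 to 15343 over the inhibitor libraries; a lone library of a group is assumed to vary like the others. A further fit left out 6MP replicate 1 and CER replicate 2, chosen after seeing the data. In it the 23 member regions within 10 kb had a median log2 difference of 0.0005 over the inhibitor libraries, beside −0.085 for all regions.

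Libraries with the same replicate number did not deviate together (correlations over the 15 pairs of groups from −0.34 for Vehicle and Combo to 0.25 for Vehicle and CER, with 0.15 for Vehicle and LSD1i). The name suffix was partly confounded with group. Both Day0 libraries carried P and the LSD1i libraries no letter. Vehicle and CER replicate 1 and 6MP and Combo replicate 2 carried R. With R on the same replicate number the correlations were 0.25 (Vehicle and CER) and 0.14 (6MP and Combo). With R on opposite numbers they were −0.34 (Vehicle and Combo), −0.20 (CER and Combo), −0.11 (Vehicle and 6MP) and −0.04 (6MP and CER). A replicate block gave 2577 in LSD1i, 3360 in Combo, 152 in CER, 40 in Vehicle against Day0, 104 in Combo against LSD1i and 9718 over the inhibitor libraries. The crossed pairing, chosen after seeing the data, gave 3772 in Combo and 0 in 6MP.

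At an FDR of 0.01 the authors' deposited table held 8 member rows for Combo, and at an absolute log2 fold of 1 it held 3 for Combo and 0 for LSD1i. Regions numbered 21 within the gene bodies and 62 within 25 kb. The difference in peaks per library was 3.25 to 4.39 with each library left out, and −1.32e-05 percentage points as a share of the library's peaks.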
